A study of Rattus norvegicus with 8 samples.

Results

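Interferon genes were examined after knockdown of TonEBP in primary rat nucleus pulposus cells, which come from the gelatinous core of the intervertebral disc. TonEBP, the product of Nfat5, is a transcription factor that responds to high salt. The genes were taken by symbol from a list of 39 covering receptors and kinases, Stat and Irf factors, and effectors of the interferon response. The authors' table of 13613 genes held 35 of them: 6 of 6 receptors and kinases, 8 of 8 Stat and Irf genes, and 21 of 25 effectors. Mx1, Mx2, Oas1a and Xaf1 were not matched and are not analysed here. RNA came from 4 cultures transduced with a short hairpin RNA against TonEBP (shTon) and 4 cultures transduced with the control vector (PLKO1). All 8 cultures were grown out of disc explants, expanded in medium with serum, and given 110 mM of added NaCl for 8 h, so no culture without added salt and no culture with added interferon is compared. Each group holds 1 library from each of Sets 1 to 4. The labels do not say whether the Sets came from separate animals, so p-values measure only the spread between these libraries.

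Interferons are secreted proteins that bind paired receptor chains at the cell surface. The receptors act through the kinases Jak1 and Tyk2 on Stat proteins, and a complex that contains Stat2 and Irf9 then switches on genes whose promoters carry an interferon-stimulated response element (ISRE). The products of these genes, here called effectors, sense foreign RNA, block translation and viral assembly, or tag proteins with the ubiquitin-like Isg15. Other Irf proteins, such as Irf3, Irf5 and Irf7, relay signals from RNA sensors and Toll-like receptors, and many effectors can be switched on by these without secreted interferon.

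Promoter windows of 300 bases, from 250 before to 50 after the gene's start, were available from RefSeq (GRCr8) for 26 of the 35 members. Jak1, Tyk2, Irf2, Ifit2, Isg15, Ddx58, Dhx58, Rtp4 and Usp18 had no entry matched by symbol. The ISRE pattern, TTTC followed by any 2 bases and another TTTC, searched on both strands, occurred in 11 of 15 effector windows, in 1 of 7 Stat and Irf windows and in 0 of 4 receptor windows, against 3.77% of the windows of 27457 genes. The pattern TTCNNNGAA, to which Stat dimers bind, occurred in 8 of 26 member windows, against 8.68% of all windows. The TonE consensus, the site TonEBP binds, was matched in 5 effector windows (Gbp2, Ifi27, Ifi44, Ifit3 and Parp14) and in 0 of the 11 receptor, Stat and Irf windows, against 5.96% of all windows. The NF-kB consensus was matched in 4 member windows (Ifngr2, Irf1, Irf3 and Oasl), against 7.6% of all windows. Matches of different motifs overlapped in Parp14, Bst2 and Ifi27. A match is a run of letters and not a measured binding site.

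The windows of 4 members are printed, and a relation between their matches and the knockdown differences was not tested. Ifit3, Oasl and Irf8 were called lower in the authors' deposited table, and Oasl2 is the gene next to Oasl. Each is written 5′ to 3′ along the gene, with motif matches in capitals. In Ifit3 (chr1:241527076-241527375, + strand) the capitals mark a TonE match that starts 207 bases before the gene's start and an ISRE match, TTTCAGTTTC, that starts 44 bases before it. In Oasl (chr12:47356243-47356542, - strand) they mark an NF-kB match 165 bases before the start, and the window holds no ISRE match. In Oasl2 (chr12:47383136-47383435, - strand) they mark an ISRE match 151 bases before the start, with the same letters as in Ifit3. In Irf8 (chr19:65699034-65699333, + strand) they mark a pair of Stat dimer patterns 180 and 161 bases before the start.
Ifit3: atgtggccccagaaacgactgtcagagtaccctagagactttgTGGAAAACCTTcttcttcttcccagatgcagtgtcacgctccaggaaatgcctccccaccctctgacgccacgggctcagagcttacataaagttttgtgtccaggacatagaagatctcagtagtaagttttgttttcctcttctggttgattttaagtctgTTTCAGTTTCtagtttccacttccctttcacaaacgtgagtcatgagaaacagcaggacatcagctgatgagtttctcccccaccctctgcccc
Oasl: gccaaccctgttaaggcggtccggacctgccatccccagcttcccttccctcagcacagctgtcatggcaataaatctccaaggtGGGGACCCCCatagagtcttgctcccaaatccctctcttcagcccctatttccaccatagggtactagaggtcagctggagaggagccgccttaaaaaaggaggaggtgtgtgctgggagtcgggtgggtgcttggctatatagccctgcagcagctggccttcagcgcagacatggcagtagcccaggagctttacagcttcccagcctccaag
Oasl2: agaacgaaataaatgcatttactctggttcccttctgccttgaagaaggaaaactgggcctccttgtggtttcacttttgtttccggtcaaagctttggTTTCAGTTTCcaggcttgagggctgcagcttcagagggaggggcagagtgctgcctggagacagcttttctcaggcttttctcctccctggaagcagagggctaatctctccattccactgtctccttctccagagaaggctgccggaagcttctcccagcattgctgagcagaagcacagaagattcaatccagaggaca
Irf8: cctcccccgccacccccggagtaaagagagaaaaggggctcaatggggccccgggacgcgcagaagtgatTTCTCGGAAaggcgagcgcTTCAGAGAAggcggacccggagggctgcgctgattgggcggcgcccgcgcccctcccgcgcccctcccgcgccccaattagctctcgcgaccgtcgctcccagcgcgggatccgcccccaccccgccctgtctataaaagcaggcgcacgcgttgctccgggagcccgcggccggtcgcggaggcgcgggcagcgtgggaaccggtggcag

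Libraries held between 9567488 and 15782202 reads on the listed genes. Nfat5, the target of the hairpin, measured 1094, 872, 459 and 414 normalized counts in knockdown libraries 1 to 4, against 1682, 2332, 1677 and 942 in control libraries 1 to 4. A normalized count is a read count divided by 1 factor per library. It was lower in all 4 Sets, and the ranges of the groups overlapped, with control library 4 under knockdown library 1. On the log2 scale the difference was -1.27 (SE 0.379). Adjusted p values were 0.378 in limma, 0.0591 in limma blocked by Set and 1.01e-05 in DESeq2 blocked by Set. Of 12 nucleus pulposus markers 8 had a row, and T, Krt19, Shh and Acan are not analysed here. Car3, a marker of these cells, ran from 23.2 to 15939 in knockdown and from 132 to 11125 normalized counts in control libraries, with both groups highest in Set 1. Other nucleus pulposus markers had another order of Sets. Krt8 was highest in Set 3 of both groups, at 725 in knockdown and 865 in control, Cd24, Pax1 and Foxf1 were highest in Set 2, and Cdh2 in Set 4. Sox9 was low, at 3.22 to 12.2 in knockdown and 0 to 29.2 normalized counts in control libraries. Krt18 was at 0 in the libraries of Sets 1 and 2 of both groups. Fibroblast markers were abundant in every library, with summed levels of 26422 to 180591 in knockdown and 24694 to 145388 in control libraries. Their sum was higher in the knockdown in all 4 Sets, and the authors' deposited table calls Col1a1 (log2 1.24, adjusted p = 3.76e-19) and Col1a2 (log2 0.88, adjusted p = 4.65e-06) higher. The fibroblast markers did not move together: in limma 5 of 8 lay below 0 and 3 above, with a median of -0.08. Pdgfra was at -0.59 and Thy1 at -0.43 on the log2 scale. Of 12 macrophage and leukocyte markers 6 had a row, and their summed level was 411 to 782 in knockdown and 572 to 1008 in control libraries. Ptprc, the pan-leukocyte marker, is not analysed here. The macrophage sum was lower in the knockdown in Sets 1 to 3 and higher in Set 4. Cd14 made up most of this sum in Sets 2 to 4, as with 604 of 659 in knockdown library 4 and 434 of 572 in control library 4. In Set 4 Cd14, Csf1r and Mrc1 were higher in the knockdown, and Cd68, Cd74 and Itgam were lower. In bulk RNA, fewer cells of a type and less RNA per cell cannot be told apart.

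A few interferon genes were called, in opposite directions, and most were not, where a call is an adjusted p under 0.05. Ifit3, Oasl, Isg15 and Irf8 were called lower in the knockdown in the authors' deposited table, which is 11.8% of the 34 members with an adjusted p, against 5.22% of all genes. Ifit2 was called higher in the authors' deposited table, which is 2.94% of the members, against 4.09% of all genes. DESeq2 with the Set as a block called the same 4 lower and the same 1 higher, where it called 5.13% of all genes lower and 4.05% higher. Without the Set it called Ifit3 alone (background 0.833% lower and 0.597% higher). Limma called 0 members without the Set (background 0.00808% lower, 0.0% higher) and 0 with it (0.0% in either direction), and edgeR called 0 in either fit (0.00808% lower and 0.0% higher without the Set, 0.0% in either direction with it). At an unadjusted p under 0.05 limma had 2 members without the Set, Ifit3 and Oasl, both lower, where 5.14% of all genes were lower and 4.36% higher. With the Set as a block it had 7 lower (20.6% of the tested members, against 12.0% of all genes) and 1 higher (against 11.1%). EdgeR had the same 2 members without the Set (background 5.41% lower and 4.24% higher) and likewise 7 lower and 1 higher with it (background 11.9% and 10.4%).

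Of the 34 members that passed the filter on low reads, 24 had a fitted log2 fold change below 0, or 70.6%, against 49.9% of all genes, and their median was -0.16, against 0.00 for all genes. In all 4 Sets 7 members were lower (20.6%, against 16.2% of all genes) and 3 were higher (8.82%, against 17.0%). The knockdown and control libraries did not overlap for Ifit3 alone, lower in the knockdown, where 3.44% of all genes were lower and 2.9% higher without overlap. The median absolute change of the members was 0.24, the same as that of all genes at 0.24. Without control library 4 the number of members below 0 was 15, against 24 with all libraries.

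**Figure D1:**
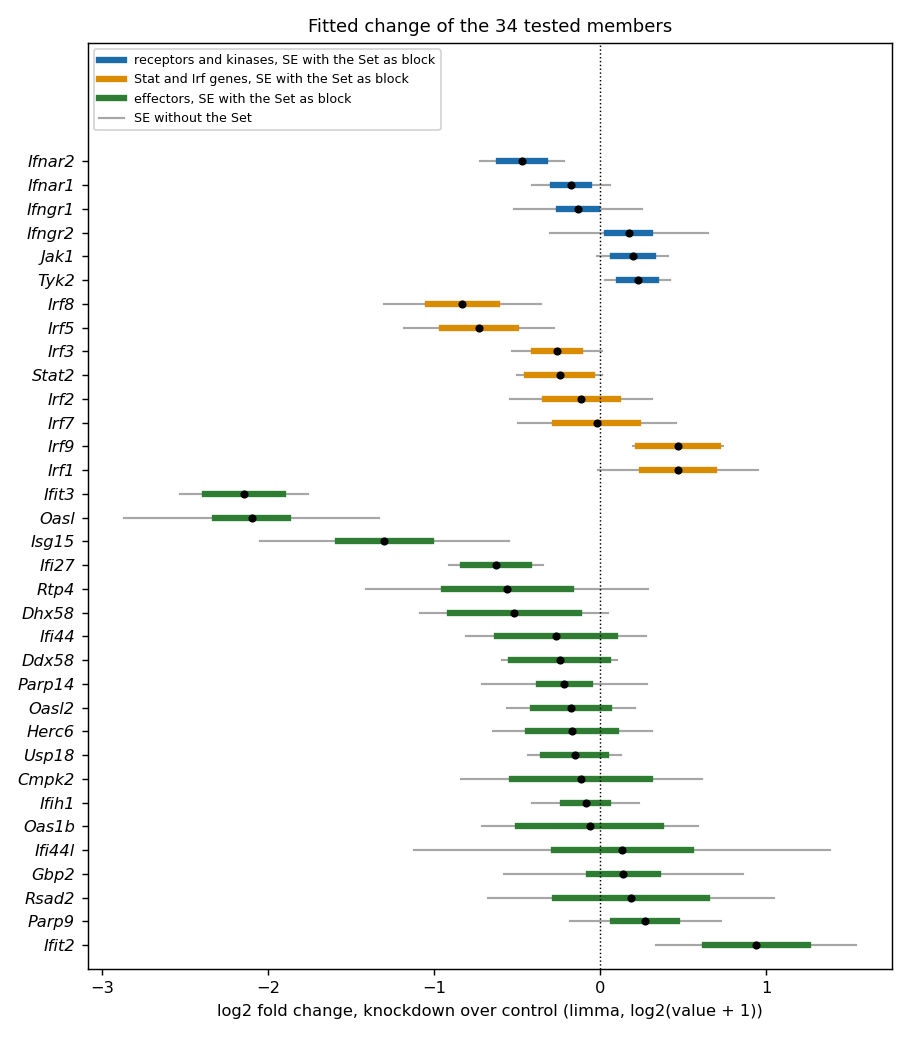
Fitted log2 fold change, knockdown over control, of the 34 tested members (dots), with the standard error without the Set (thin grey lines) and with the Set as a block (thick coloured lines), grouped by role. Ifit3 (-2.14) and Oasl (-2.10) lie furthest to the left and Ifit2 (0.94) furthest to the right, while the receptors and kinases lie between -0.47 and 0.23.

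The receptor chains and kinases stayed within a narrow range, from -0.47 to 0.23 on the log2 scale, with 3 of 6 below 0, a median of 0.02, and 0 called by limma, DESeq2 blocked by Set or in the authors' deposited table. Ifnar2, a chain of the type I interferon receptor, measured 411, 361, 282 and 557 normalized counts in knockdown libraries 1 to 4, against 548, 415, 500.3 and 758 in control libraries. The knockdown library was the lower one in all 4 Sets, and the ranges of the groups overlapped. Its mean was 403 ± 115 in knockdown and 555 ± 146 in control libraries (SD, n = 4), or -0.47 on the log2 scale, and its adjusted p in limma was 0.609 unblocked and 0.122 blocked by Set. Library values of Ifnar2, Ifi27, Gbp2 and Parp14 are given because of what they showed. Ifnar1, the partner chain, measured 1210.4, 1693, 1548 and 2003 normalized counts in knockdown libraries, against 1325, 1723, 1736 and 2599 in control libraries. It too was lower in each Set, by log2 differences between -0.38 and -0.03, and its limma adjusted p was 0.896. Without control library 4 its fitted change was 0.0048.

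The chains of the type II interferon receptor did not pass the test either. Ifngr1 averaged 1230.3 ± 478 in knockdown and 1377 ± 617 normalized counts in control libraries (SD, n = 4). Ifngr2 averaged 677 ± 337 in knockdown and 641 ± 437 in control libraries (SD, n = 4). Most of the sum of squares of their log2 levels lay between Sets, 96.5% for Ifngr1 and 96.2% for Ifngr2, and 1.47% and 1.6% lay between the groups. Jak1, which both receptor types use, measured 3599, 4313, 5006 and 5698 normalized counts in knockdown libraries, against 3376, 3657, 3699 and 5619.8 in control libraries. Jak1 was higher in the knockdown in each Set, with a fitted difference of 0.20 on the log2 scale (SE 0.213, limma adjusted p = 0.848). Tyk2, the kinase partner of Ifnar1, averaged 624 ± 131 in knockdown and 531 ± 89.1 normalized counts in control libraries (SD, n = 4), and was higher in each of the 4 Sets by log2 differences between 0.09 and 0.35. For Tyk2 the adjusted p in limma was 0.788 unblocked and 0.272 blocked by Set.

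Among the Stat and Irf genes 6 of 8 lay below 0, with a median of -0.18 and a range from -0.83 to 0.47, and Irf8 alone was called. Irf8, a transcription factor best known from myeloid cells, measured 53.0, 44.6, 73.5 and 23.6 normalized counts in knockdown libraries 1 to 4, against 97.3, 59.8, 158 and 46.4 in control libraries. It was lower in every Set while the groups overlapped, with 66.7% of the sum of squares between Sets and 30.4% between the groups. The fitted difference was -0.83 on the log2 scale, -0.51 without control library 3 and -0.53 without knockdown library 4. Adjusted p values were 0.628 in limma, 0.102 in limma blocked by Set, 0.0415 in DESeq2 blocked by Set and 0.0365 in the authors' deposited table. DESeq2 blocked by Set gave it adjusted p values between 0.228 and 0.307 when any Set was left out. The macrophage marker Cd68 measured 96.9, 18.7, 14.5 and 19.3 normalized counts in knockdown libraries, against 213, 19.9, 51.8 and 75.4 in control libraries. Across Sets, Cd68 was highest in Set 1 of both groups and Irf8 in Set 3. The authors' deposited table lists Cd68 at -0.94 on the log2 scale with adjusted p = 0.0178. Cd68 was lower in all 4 Sets, and the part of macrophages in the Irf8 difference was not tested. The other macrophage markers in the file were not called in the authors' deposited table. Cd74 was lower in all 4 Sets, while Csf1r and Cd14 were lower in Sets 1 to 3 and higher in Set 4. Mrc1 and Itgam were lower in 2 Sets and higher in 2. The dendritic markers Flt3 and Itgax had fitted differences above 0, at 1.15 and 0.69 on the log2 scale. Itgax averaged 39.3 in knockdown and 38.8 normalized counts in control libraries, and was lower in Sets 1 and 2. Its lowest library was control library 3, at 2.46 normalized counts. The dendritic marker Ccr7, left out of limma by the filter on low reads, was lower in Sets 1 to 3. Flt3 and Ccr7 were at 0 in both libraries of Set 4.

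Irf5, which relays Toll-like receptor signals, averaged 89.9 ± 31.2 in knockdown and 169 ± 122 normalized counts in control libraries (SD, n = 4) and was lower in all 4 Sets. Control library 4, at 350 normalized counts, carried much of its control mean. Adjusted p values of Irf5 were 0.660 in limma, 0.129 in limma blocked by Set and 0.0565 in the authors' deposited table. Stat2, a subunit of the factor that binds the ISRE, measured 690, 607, 526 and 1046 normalized counts in knockdown libraries, against 588, 781, 972 and 1016 in control libraries. It was higher in Sets 1 and 4 and lower in Sets 2 and 3 (limma adjusted p = 0.843). Irf9, the DNA-binding partner of Stat2, measured 293, 349, 341 and 476 normalized counts in knockdown libraries, against 201, 275, 412 and 198 in control libraries. Irf9 was higher in Sets 1, 2 and 4 and lower in Set 3, and the fitted difference was 0.47 (limma adjusted p = 0.631).

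Irf7, the factor that amplifies type I interferon genes, measured 82.8, 67.3, 164 and 312 normalized counts in knockdown libraries, against 116, 95.7, 149 and 184 in control libraries. It was lower in Sets 1 and 2 and higher in Sets 3 and 4. Its fitted difference of -0.02 (limma adjusted p = 0.998) was above 0 in DESeq2 and edgeR without the Set, at 0.20 and 0.19. Irf1, a factor of the interferon gamma response, averaged 609 ± 223 in knockdown and 493 ± 336 normalized counts in control libraries (SD, n = 4). It was higher in Sets 1 to 3 and lower in Set 4, with a limma adjusted p of 0.837, and DESeq2 blocked by Set called it higher only when Set 4 was left out (log2 0.74, adjusted p = 0.0273). Irf3, which acts downstream of the RNA sensors, averaged 667 ± 131 in knockdown and 824 ± 263 normalized counts in control libraries (SD, n = 4). Irf2, a repressor of Irf1 targets, averaged 47.3 ± 19.1 in knockdown and 51.6 ± 21.7 in control libraries (SD, n = 4).

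Ifit3 (ENSRNOG00000022839), an effector whose protein family binds viral RNA, was the member whose groups did not overlap. It measured 31.5, 22.7, 18.4 and 15.0 normalized counts in knockdown libraries 1 to 4, against 136, 112, 112 and 51.2 in control libraries. Every knockdown library lay below every control library, and the means were 21.9 ± 7.12 in knockdown and 103 ± 36.1 in control libraries (SD, n = 4), so that the knockdown held 21.3% of the control level. Ifit3 differed by -2.14 on the log2 scale (SE 0.387), and 84.3% of the sum of squares of its log2 levels lay between the groups. Adjusted p values of Ifit3 were 0.318 in limma, 0.0578 in limma blocked by Set, 2.04e-04 in DESeq2 and 6.09e-09 in DESeq2 blocked by Set. The authors' deposited table lists Ifit3 at -1.78 with adjusted p = 1.49e-09.

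Oasl (ENSRNOG00000001187), a member of the oligoadenylate synthetase family, measured 63.8, 12.2, 22.2 and 8.58 normalized counts in knockdown libraries 1 to 4, against 303, 43.8, 96.1 and 47.3 in control libraries. Set 1 was the highest Set in both groups and the groups overlapped, while the log2 differences within Sets were alike at -2.23, -1.77, -2.06 and -2.34. Ifit3, Oasl and the summed macrophage markers were each highest in Set 1 of both groups. So were the summed nucleus pulposus, dendritic and endothelial markers, while the macrophage marker Cd14 was lowest in Set 1 of both groups (278 in knockdown, 311 in control). Car3 alone made up 15939 of 16636 of the nucleus pulposus sum in knockdown library 1, and 11125 of 11755 in control library 1. The endothelial sum was nearly level between knockdown libraries 1 and 3, at 20.7 and 20.3. The part of macrophages in the Ifit3 and Oasl differences was not tested. The fitted difference was -2.10 (SE 0.768, or 0.222 blocked by Set). Adjusted p values of Oasl were 0.455 in limma, 0.0578 in limma blocked by Set, 0.146 in DESeq2, 3.88e-09 in DESeq2 blocked by Set and 1.17e-09 in the authors' deposited table. With any Set left out, DESeq2 blocked by Set still called Ifit3 and Oasl lower, with adjusted p values of at most 0.00123 for Ifit3 and 0.00345 for Oasl.

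Isg15 (ENSRNOG00000021802), the ubiquitin-like modifier, measured 12.4, 10.5, 65.8 and 20.4 normalized counts in knockdown libraries 1 to 4, against 40.3, 31.9, 192 and 30.0 in control libraries. Both libraries of Set 3 were the highest of their groups, the groups overlapped, and the knockdown was lower in all 4 Sets, least so in Set 4 (log2 -0.53, against -1.62 to -1.51 in the others). Isg15 differed by -1.30 on the log2 scale, and by -0.68 without control library 3. Adjusted p values of Isg15 were 0.631 in limma, 0.0824 in limma blocked by Set and 0.00768 in DESeq2 blocked by Set. The authors' deposited table lists Isg15 at -1.03 with adjusted p = 0.00555. In DESeq2 blocked by Set the call was kept without Set 4 (adjusted p = 0.00867) and lost without Set 1 (0.106), Set 2 (0.179) or Set 3 (0.211).

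Ifit2 (ENSRNOG00000036604), an effector of the same family as Ifit3, went the other way. It measured 368, 713, 155 and 1209.8 normalized counts in knockdown libraries 1 to 4, against 216, 405, 148 and 277 in control libraries. Knockdown library 4 was the highest of all, the libraries of Set 3 were nearly level, and the groups overlapped. Ifit2 differed by 0.94 on the log2 scale, by 0.49 without knockdown library 4 and by 1.47 without knockdown library 3. Adjusted p values of Ifit2 were 0.678 in limma, 0.146 in limma blocked by Set, 0.044 in DESeq2 blocked by Set and 0.0358 in the authors' deposited table. In DESeq2 blocked by Set the call was kept without Set 3 (log2 1.23, adjusted p = 0.00334) and lost without Set 1 (0.0990), Set 2 (0.234) or Set 4 (0.257).

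**Figure D2:**
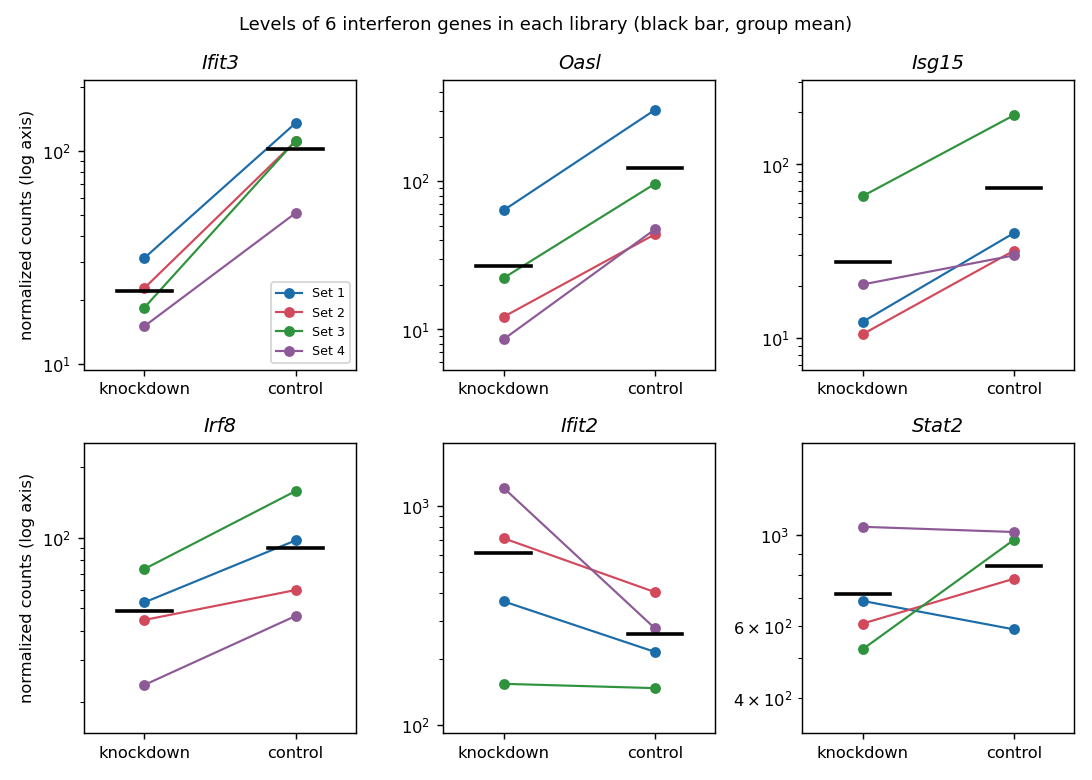
Normalized counts (log axis) of Ifit3, Oasl, Isg15, Irf8, Ifit2 and Stat2 in each library, knockdown at the left and control at the right, with lines joining the libraries of a Set and black bars for group means. The lines of Ifit3, Oasl, Isg15 and Irf8 are lower at the knockdown end in all 4 Sets, those of Ifit2 are higher there, and those of Stat2 cross.

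Ifit2 and Ifit3 are neighbours with 0 protein-coding genes between them in the GRCr8 annotation, and so are Oasl and Oasl2. These pairs were picked after their values were seen, and the ratios of normalized counts below are not corrected for gene length and are compared only between libraries. The ratio of Ifit3 to Ifit2 was 0.0856, 0.0319, 0.119 and 0.0124 in knockdown libraries 1 to 4, against 0.628, 0.275, 0.758 and 0.185 in control libraries, and the groups did not overlap. The ratio of Oasl to Oasl2 was 1.45, 0.217, 0.561 and 0.0842 in knockdown libraries, against 4.02, 0.805, 2.29 and 0.5 in control libraries. It was lower in the knockdown in all 4 Sets, and the groups overlapped, with Set 1 high in both. Oasl2 itself averaged 60.3 ± 28.5 in knockdown and 66.6 ± 23.3 normalized counts in control libraries (SD, n = 4), a difference of -0.18 on the log2 scale (limma adjusted p = 0.942). Reads shared between relatives of these families could not be checked.

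The cytoplasmic RNA sensors did not pass the test. Ddx58 (RIG-I) averaged 76.8 ± 36.8 in knockdown and 87.2 ± 21.5 normalized counts in control libraries (SD, n = 4). Ifih1 (MDA5) averaged 387 ± 151 in knockdown and 398 ± 111 in control libraries (SD, n = 4). Dhx58 (LGP2), their regulator, averaged 53.7 ± 32.2 in knockdown and 77.6 ± 53.6 in control libraries (SD, n = 4), with log2 differences of -1.44 in Set 2, -1.24 in Set 3 and 0.73 in Set 4. Limma adjusted p values of the 3 sensors lay between 0.851 and 0.973 without the Set, and the authors' deposited table gives 0.537 to 0.848.

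Of the remaining effectors, Ifi27, an interferon-inducible membrane protein gene, came nearest to a call. It measured 2993, 2444, 1539 and 3347 normalized counts in knockdown libraries 1 to 4, against 2932, 3703, 3532 and 5587 in control libraries. Set 1 was level (log2 0.03) and the log2 differences in Sets 2 to 4 were -0.60, -1.20 and -0.74. Adjusted p values of Ifi27 were 0.534 in limma, 0.134 in limma blocked by Set and 0.0583 in the authors' deposited table. DESeq2 blocked by Set called it when Set 1 was left out (log2 -0.85, adjusted p = 0.00332). Usp18, the protease that removes Isg15 from proteins and dampens the type I receptor, averaged 222 ± 42.3 in knockdown and 256 ± 97.5 normalized counts in control libraries (SD, n = 4).

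Parp9 averaged 949.9 ± 428 in knockdown and 806 ± 394 normalized counts in control libraries (SD, n = 4). Parp14, a related ADP-ribosyltransferase gene, averaged 987 ± 400.0 in knockdown and 1255 ± 746 in control libraries (SD, n = 4). The GTPase gene Gbp2 averaged 545 ± 333 in knockdown and 606 ± 543 in control libraries, and Ifi44 averaged 291 ± 104 in knockdown and 408 ± 265 in control libraries (SD, n = 4). The Isg15 ligase of the mouse, Herc6, averaged 40.6 ± 24.2 in knockdown and 43.7 ± 18.3 normalized counts in control libraries (SD, n = 4). Limma adjusted p values of these 5 genes lay between 0.922 and 0.983. Ifi44l, Rsad2 (viperin), Cmpk2, Oas1b, Rtp4 and Bst2 (tetherin) had few reads, with a highest library of 96, 38, 34, 24, 32 and 16 reads, and the 5 of them that were tested did not pass. Bst2 was left out of limma by the filter on low reads, at 0 to 15.5 normalized counts in knockdown and 0 to 6.16 in control libraries.

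The effectors reached further from 0 at both ends than the receptors, kinases, Stat and Irf genes, and their median absolute change was alike. The 20 tested effectors had a median of -0.17, with 15 below 0 and a range from -2.14 to 0.94, against a median of -0.12, with 9 of 14 below 0 and a range from -0.83 to 0.47, for the signaling genes. The median absolute change was 0.23 for both effectors (0.229) and signaling genes (0.235). The authors' deposited table calls 3 effectors lower and 1 higher, and 1 signaling gene lower and 0 higher, where 5.22% of all genes are lower and 4.09% higher. These counts describe the lists, and the difference between them was not tested.

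The effector median differed in sign between Sets. Within Sets 1 to 4 the effector medians were -0.06, -0.29, -0.68 and 0.08, with 11, 14, 16 and 8 of 20 below 0, and the signaling medians were 0.11, -0.11, -0.25 and -0.20, with 5, 8, 9 and 9 of 14 below 0. In the same Sets the knockdown held 65.0%, 37.4%, 27.4% and 43.9% of the Nfat5 level of its control. Set 3 was lowest in the Nfat5 shares, the effector medians and the signaling medians. Set 1 had the highest share and the highest signaling median, and Set 4 the highest effector median. A relation between the shares and the medians was not tested. In Set 4, where Ifit2 differed by 2.12, Irf9, Irf7, Parp9, Ifi44, Dhx58, Ddx58 and Rsad2 were higher in the knockdown by 0.69 to 1.26, while 17 of 34 members were below 0, among them Oasl, Ifit3, Rtp4, Irf5, Irf8, Ifi27 and Isg15. Without knockdown library 4 the median of the effectors was -0.46, and that of the Stat and Irf genes -0.41.

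**Figure D3:**
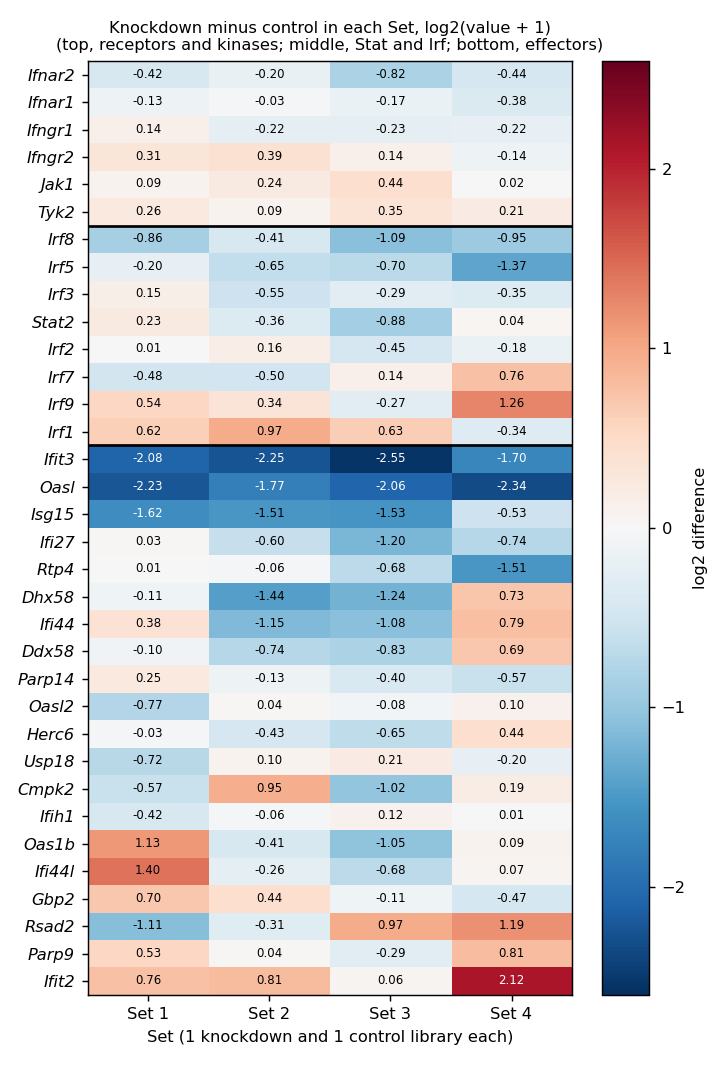
Log2 difference, knockdown minus control, of each tested member (rows, ordered within role by fitted change) in Sets 1 to 4 (columns). Ifit3, Oasl, Isg15 and Irf8 are below 0 in every Set, while Dhx58, Ifi44 and Ddx58 are below 0 in Sets 2 and 3 and above 0 in Set 4.

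The Set took a larger part of the sum of squares of the log2 levels than the group for 32 of 34 members (94.1%), against 82.9% of all genes, and the exceptions were Ifit3 and Irf9. The Set has 3 degrees of freedom and the group 1, which favours the Set in this count. Per degree of freedom the Set took more for 25 of 34 members (73.5%, against 64.2% of all genes), and the group took as much or more for Ifnar2, Irf5, Irf8, Irf9, Ifi27, Ifit2, Ifit3, Isg15 and Oasl. The median part taken by the Set was 78.6% for the members and 64.3% for all genes, and the median part taken by the group was 6.56% and 10.3%. Averaged over both libraries of a Set, 22 of 34 members were highest in Set 4 (64.7%, against 30.4% of all genes) and 20 were lowest in Set 1 (58.8%, against 29.3%). Gbp2 is an example, at 259, 292, 670 and 960 normalized counts in knockdown libraries 1 to 4, against 159, 215, 722 and 1326 in control libraries, which gave 94.8% of its sum of squares to the Set. Parp14 had the same order, at 534, 812, 1148 and 1454 in knockdown libraries and 449, 892, 1519 and 2160 in control libraries. Ifit3 and Oasl, in contrast, had their highest level in Set 1 of both groups.

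**Figure D4:**
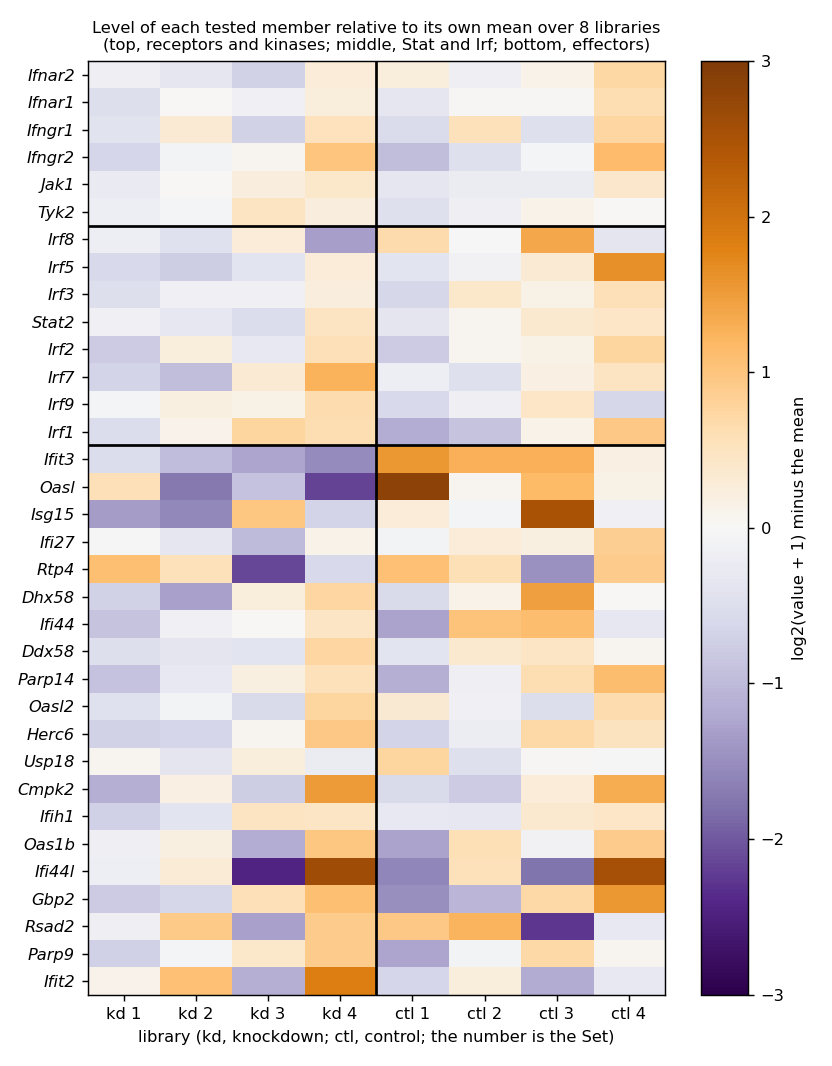
Log2 level of each tested member relative to its own mean over the 8 libraries (rows as in the plot of Set differences), with knockdown libraries 1 to 4 at the left and control libraries 1 to 4 at the right. Most rows are high in both libraries of Set 4 and low in both of Set 1, and Ifit3 is the row that splits by group.

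Other genes of the pathway were taken from a list of 105, of which 72 had a row and 65 passed the filter on low reads. Limma called 0 of them, and at an unadjusted p under 0.05 it had 4 lower (5.14% of all genes) and 1 higher (4.36% of all genes). The authors' deposited table calls 6 lower, where it calls 5.22% of all genes lower, and 0 higher, where it calls 4.09%. Of the 65, 38 lay below 0, where 49.9% of all genes did, and the median was -0.15. The knockdown and control libraries did not overlap for 2 of the 65 lower in the knockdown, Cxcl10 and Eif2ak2, and 1 higher, Pias1. Of all genes 3.44% were lower and 2.9% higher without overlap. The interferon genes on the list were represented by Ifne, at 0 to 9.11 normalized counts in knockdown and 1.23 to 21.9 in control libraries, and the others, such as Ifnb1 and Ifng, are not analysed here.

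Cxcl10, an interferon-inducible chemokine, measured 166, 132, 21.3 and 82.6 normalized counts in knockdown libraries 1 to 4, against 578, 453, 368 and 545 in control libraries, with no overlap. The fitted difference was -2.58 on the log2 scale, and adjusted p values were 0.324 in limma, 0.0591 in limma blocked by Set and 1.17e-08 in DESeq2 blocked by Set. Eif2ak2, the RNA-dependent kinase PKR that halts translation, averaged 614 ± 78.1 in knockdown and 848 ± 115 normalized counts in control libraries (SD, n = 4), also with no overlap. The authors' deposited table lists Eif2ak2 at -0.45 with adjusted p = 0.0149. Its adjusted p was 0.417 in limma and 0.0833 in limma blocked by Set, and DESeq2 blocked by Set did not call it when any Set was left out (0.118 to 0.389). Plscr1, a phospholipid scramblase gene, averaged 777 ± 281 in knockdown and 1889.5 ± 1264 normalized counts in control libraries (SD, n = 4). Socs3, a feedback inhibitor of Jak kinases, averaged 256 ± 114 in knockdown and 582 ± 431 in control libraries (SD, n = 4). The authors' deposited table calls both lower, at log2 -1.05 and -0.85, together with Ifitm1 and Ifi27l2b, which were named after their values were seen. Plscr1 kept its call in DESeq2 blocked by Set with any Set left out, and its limma difference of -1.14 was -0.75 without control library 4. Socs3 lost the call without Set 3 (adjusted p = 0.148) or Set 4 (0.229), and its limma difference of -1.11 was -0.67 without control library 4 or knockdown library 3.

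Ifitm3, which blocks virus entry, averaged 771 ± 385 in knockdown and 1463 ± 582 normalized counts in control libraries, and its relative Ifitm2 averaged 3676 ± 1100 in knockdown and 5774 ± 1521 in control libraries (SD, n = 4). Both were lower in Sets 2 to 4 and slightly higher in Set 1, with limma adjusted p values of 0.533 and 0.517 and no call in the authors' deposited table. Pias1, a SUMO ligase gene of the PIAS family, averaged 438 ± 35.1 in knockdown and 346 ± 38.7 normalized counts in control libraries (SD, n = 4), with no overlap between the groups and a limma adjusted p of 0.517. Tdrd7, a Tudor domain gene induced by interferon, averaged 1035 ± 217 in knockdown and 755 ± 127 normalized counts in control libraries (SD, n = 4), with a limma adjusted p of 0.533.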

How the data were processed

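RNA from 8 cultures was sequenced in single reads of 50 cycles, per the labels' protocols. The submitters' processing notes name Novoalign 2.08.01, DESeq2 1.10.1 and build rn5. For counter, annotation and strand setting nothing is given in the sources used here, so overlapping, antisense or paralogous genes could not be separated. The deposited signal values are read counts that the authors divided by 1 factor per library, per the file headers and the values: whole reads were recovered for 100.0% of values (within 0.001 reads). The lowest sum over 8 libraries was 13 reads, so genes with fewer reads do not appear. The deposited table also lists log2 fold changes and adjusted p-values, which are the authors' own, with no p for 1362 genes. Beyond the DESeq2 named in the notes, no test or design is stated for them. Of the 1140 genes the authors call, DESeq2 with the Set as a block shares 1115 and without it 162. Both rest on the same reads, so calls shared by them are not independent evidence.

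The file holds normalized values, so limma 3.58.1 with a mean-variance trend was run on log2(value + 1) for knockdown against control alone (2-sided), using Benjamini-Hochberg adjustment at 0.05 over the 12383 genes kept by filterByExpr. Fold changes on this scale understate changes of genes with few reads. Recovered reads were tested with edgeR 4.0.16 (quasi-likelihood) and DESeq2 1.42.0, in R 4.3.3. Figures used matplotlib 3.10.9 in Python 3.11.15. The procedures were tested on simulated data that held no differences between Sets, which cannot show how fits blocked by Set perform where Sets differ. Same-numbered knockdown and control libraries deviated together from their group means (correlations of 0.681 to 0.805 across genes, and -0.578 to 0.333 for other pairs), so the Set number pairs them, and fits with it as a block are given beside the main ones. Parts of the sum of squares come from log2(value + 1) split by Set and group.

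The members, lists and tests were chosen with earlier results of these data known. Library values are given for members called in limma, in the authors' table or by DESeq2 with the block, for those without overlap or with an unadjusted limma p under 0.05, and for 9 fixed genes. From the other pathway genes the 8 with the lowest limma p are described, and 1 further gene of the naming rule is not reported here.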

Additional observations from a re-analysis of the deposited data

Results flagged for a closer look

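In 4 of 88 groups of 4 libraries checked, a single library stood far from the other 3, by more than Dixon's critical value. Chance flags about 1 in 20 such groups. Isg15 measured 192 normalized counts in control library 3, against 40.3 in the next control library. Ddx58 measured 132 in knockdown library 4, against 60.0 in the next knockdown library. Jak1 measured 5619.8 in control library 4, against 3699 in the next, and Socs3 measured 1225 there, against 411 in the next.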

How the results depend on the processing

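DESeq2 without the Set called 68 higher and 95 lower genes, 1 of them a member, and with the replicate block 509 higher and 644 lower, 5 of them members. Limma and edgeR with the replicate block each called 0 genes, against 0 higher and 1 lower without it. Nfat5 passed in DESeq2 with the block (log2 -1.27). Other pseudocounts, scaling or filters called 0 members and left 24 or 25 below 0. DESeq2 with the block and Set 1, 2, 3 or 4 left out, chosen after seeing the data, called 313, 105, 314 and 202 genes higher, 571, 180, 340 and 255 lower, and 3, 2, 3 and 4 members. Nfat5 was then -1.49, -1.22, -1.08 and -1.30. Irf7 was 0.15 without Set 1 or Set 2. With 1 library left out, limma called 0 genes, and members below 0 ran from 15 (without control library 4) to 28. Nfat5 ran from -1.52 to -1.05. The receptor and kinase median ran from -0.22 (without control library 1) to 0.18 (without control library 4). The Stat and Irf median was lowest without knockdown library 4, at -0.41, and highest at 0.0061 with control library 4 left out, and the effector median from -0.46 to -0.0060. Ifnar1 ran from -0.32 to 0.0048 and Irf7 from -0.44 to 0.29. Without the Set, DESeq2 gave Irf7 0.20 and edgeR gave 0.19. The cause of these changes was not tested.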
